A study of Mus musculus with 8 samples.

Results

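The *Gria* and *Grik* genes encode the subunits of the AMPA and kainate receptors, the ion channels that carry most fast excitatory transmission in the cortex. The members described here are the 4 AMPA subunit genes (*Gria1* to *Gria4*) and the 5 kainate subunit genes (*Grik1* to *Grik5*), taken by name from a table of raw read counts per Ensembl transcript, with the transcript of lowest Ensembl number standing for each gene. They are 9 of 38031 genes in the table, and all 9 passed the filter on low counts (above 8 CPM, counts scaled to library size, in 4 or more libraries) that left 9959 genes for testing.

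The study asked whether the transcription factor *Fezf2*, a determinant of deep-layer projection neurons in development, still shapes gene expression in the mature primary motor cortex (M1). Male Swiss Webster mice received a lentivirus in M1 at P21-P25 and the tissue was taken at P49-P53. One group received *Fezf2 shRNA* and the control group *non-silencing shRNA* (n = 4 libraries of each). In both groups the vector also expressed mCherry, with the mir-30-flanked shRNA and mCherry under a rat *Synapsin I* promoter that is active in neurons, so every control animal also carried virus, shRNA and reporter. M1 was dissected where mCherry fluoresced, with all cortical layers and the meninges, so each library holds RNA of infected and uninfected neurons and of other cells together. In such bulk tissue fewer cells of a type and less RNA per cell cannot be told apart. The methods count as many injected mice in each group as there are libraries, though the labels do not link each library to an animal, and the p-values measure the spread between these libraries.

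AMPA receptors are tetramers of GluA1 to GluA4, the products of *Gria1* to *Gria4*. GluA2, from *Gria2*, makes the channel nearly impermeable to calcium once its transcript has been edited in the pore. Kainate receptors are tetramers as well: GluK1 to GluK3 (*Grik1* to *Grik3*) can form channels by themselves, whereas GluK4 and GluK5 (*Grik4* and *Grik5*) are high-affinity subunits that need one of the others. Kainate receptors sit both at synapses and on axon terminals, where they tune transmitter release.

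The 9 genes share the code of the pore loop, and the 27 bases of spliced coding sequence around its first glutamine codon are shown for that reason, 5′ to 3′ on the coding strand with that codon in capitals. In *Gria2*, *Grik1* and *Grik2* transcripts this codon is the one recoded to arginine by the enzyme ADAR2. The sequences are those of the GENCODE M21 transcripts on GRCm38.
Gria1: ggggccttcatgCAGcaaggatgtgac
Gria2: ggtgcctttatgCAGcaaggatgcgat
Gria3: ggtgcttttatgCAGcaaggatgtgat
Gria4: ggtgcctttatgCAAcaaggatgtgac
Grik1: ggagctctcatgCAGcaaggatcggag
Grik2: ggagctctcatgCAGcaaggttctgag
Grik3: ggctccctgatgCAGcaaggatctgaa
Grik4: ggaggcttcatgCAGcaaggctccact
Grik5: ggtggcttcatgCAGcagggctcggag

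Among these windows *Gria4* alone had CAA, and the other 8 had CAG. The AMPA windows differed from that of *Gria2* at 4 bases in *Gria1*, 2 in *Gria3* and 3 in *Gria4*, and the kainate windows differed from it at 7 bases in *Grik1*, *Grik3*, *Grik4* and *Grik5* and at 8 in *Grik2*. *Grik1* was nearest to *Grik2*, with 2 differing bases, and *Grik3*, *Grik4* and *Grik5* differed from *Grik2* at 6, 8 and 7. The codon lies in exon 11 of 16 on the plus strand in *Gria1* (chr11:57243094-57243096) and *Gria3* (chrX:41610265-41610267), and on the minus strand in exon 11 of 16 of *Gria2* (chr3:80706911-80706913) and exon 12 of 17 of *Gria4* (chr9:4464137-4464139). In the kainate genes it lies in exon 12 of 16 of *Grik1* (chr16:87940542-87940544, minus strand), *Grik2* (chr10:49244329-49244331, minus strand) and *Grik3* (chr4:125691207-125691209, plus strand), in exon 14 of 19 of *Grik4* (chr9:42547623-42547625, minus strand) and in exon 15 of 20 of *Grik5* (chr7:25022497-25022499, minus strand). For *Grik1*, *Grik2* and *Grik3* the window runs across the junction with the next exon. A count per transcript holds no bases, so the share of edited transcripts cannot be read from these data.

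Library totals over 1 transcript per gene ran from 54684016 to 58003814 counts in the controls and from 55932510 to 56969290 in the *Fezf2 shRNA* libraries. These totals are sums of counts over transcript intervals and not numbers of sequenced reads. The lowest count of any member in any library was 1101. The targeted gene, *Fezf2*, stood at 688, 767, 735 and 702 normalized reads (counts scaled to a common library size) in control libraries 1 to 4 and at 621, 583, 568 and 592 in *Fezf2 shRNA* libraries 1 to 4. All 4 treated libraries lay under all 4 controls (log2 fold change of *Fezf2 shRNA* against control -0.29 ± 0.08 SE, edgeR adjusted p = 0.0765; DESeq2 adjusted p = 0.0256). With an offset per library for the span of each gene it was -0.18 (edgeR adjusted p = 0.434). No summed list of cell type markers separated the groups: 5 glutamatergic markers held 708 to 886 CPM in the controls and 738 to 809 with *Fezf2 shRNA*, 6 GABAergic markers 287 to 336 and 275 to 302, 3 markers of neurons in general 2638 to 2921 and 2802 to 2943, and 5 oligodendrocyte markers 1005 to 1854 and 753 to 1248. The oligodendrocyte list was lower in *Fezf2 shRNA* tissue in all 5 of its genes (median log2 fold change -0.55, 3 at an unadjusted p under 0.05, 0 past the threshold with edgeR and 1 with DESeq2, where 7.85% of all genes were lower at that p and 0.944% with DESeq2), the threshold being an adjusted p of at most 0.05 and a log2 fold change of at least 0.2 in size. Markers of striatal projection neurons held 28.4 to 42.7 CPM in the controls and 24.9 to 34.0 with *Fezf2 shRNA*, and those of endothelial cells 16.7 to 24.4 and 15.5 to 17.1 (exact permutation p = 0.0857, the smallest of the lists). The part of cell composition in the values given next was not tested.

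The counts were assigned to whole transcript intervals, introns included, so a longer gene gathers more reads and levels between genes are compared per kb of interval. On that scale *Gria2* led with 226 ± 8.69 normalized reads per kb in the control libraries (mean ± SD, n = 4) and 232 ± 11.4 in the *Fezf2 shRNA* libraries. *Grik5* followed at 73.0 ± 6.72 in the controls, *Gria3* at 62.7 ± 6.44, *Gria1* at 45.3 ± 6.30 and *Gria4* at 35.0 ± 2.33. The other kainate genes lay below: *Grik3* at 24.5 ± 5.57, *Grik2* at 13.6 ± 0.63, *Grik4* at 6.77 ± 0.80 and *Grik1* at 3.38 ± 0.36. The order depends on the length used: per kb of exons the control means of *Grik2* (3540 reads) and *Gria3* (3347) stood above that of *Gria2* (2643). The exons are those of the transcript used for each gene, with 2610 bases in *Grik2* and 10371 in *Gria2*.

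Neighbours in this order did not all separate. The control libraries of *Grik5* and *Gria3* overlapped, as did those of *Gria4* and *Grik3*, in which control library 2 stood at 32.7 reads per kb against 20.3 to 22.5 in the other controls. In the *Fezf2 shRNA* libraries *Grik5* and *Gria3* overlapped again, and so did *Gria1* and *Gria4*. Every other neighbouring pair separated without overlap in both groups, the widest step being that from *Gria2* to *Grik5* (3.09-fold between the control means). The level of *Gria2* carries a reservation: the table gives the same counts to another *Gria2* transcript of 115041 bp, shorter than the 121386 bp used here.

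**Figure D1:**
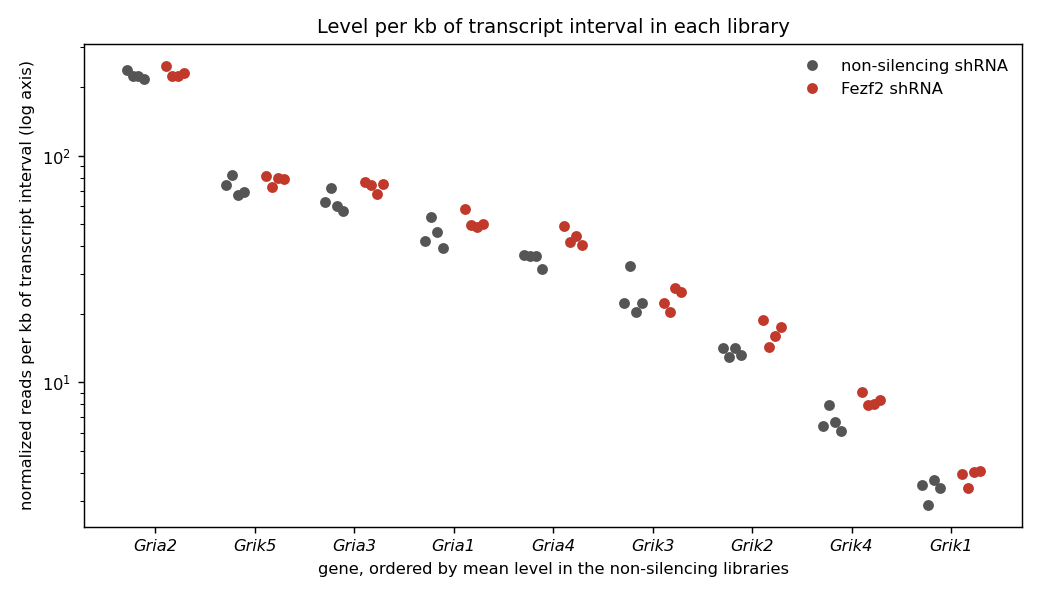
Normalized reads per kb of transcript interval (log axis) for the 9 genes, ordered by their mean in the non-silencing libraries; each point is 1 library, grey for non-silencing and red for *Fezf2 shRNA*. *Gria2* stands at 217 to 248 in all 8 libraries and *Grik1* at 2.88 to 4.04, with the other genes between them.

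Within the AMPA family *Gria2* held 61.3 ± 2.31% of the summed reads per kb of the 4 genes in the controls and 58.0 ± 0.50% in the *Fezf2 shRNA* libraries. *Gria3* held 17.0 ± 1.13% and 18.3 ± 0.79%, *Gria1* 12.3 ± 1.30% and 12.8 ± 0.45%, and *Gria4* 9.48 ± 0.29% and 10.9 ± 0.61%. Library by library the share of *Gria4* was 9.13% to 9.80% in the controls and 10.1% to 11.5% with *Fezf2 shRNA*, so it did not overlap, whereas the share of *Gria2* did, because control library 2 held 58.0%. Per kb of exons the share of *Gria4* overlapped as well (20.8% to 22.9% and 22.6% to 25.4%). Within the kainate family *Grik5* held 60.3 ± 1.02% and 59.9 ± 1.01%, *Grik3* 20.0 ± 2.51% and 18.0 ± 1.38%, *Grik2* 11.3 ± 1.39% and 12.7 ± 0.93%, *Grik4* 5.58 ± 0.32% and 6.41 ± 0.32%, and *Grik1* 2.83 ± 0.53% and 2.95 ± 0.08%. The share of *Grik4* did not overlap (5.29% to 5.96% and 6.01% to 6.67%), but per kb of exons it did (8.44% to 10.2% and 9.27% to 10.3%). Intron-containing reads make these shares of transcript-interval signal, and they do not stand for shares of mRNA or protein. Divided by exonic length instead, the same counts gave another order in the controls: *Gria3* led the AMPA family with 30.3%, ahead of *Gria2* with 24.1%, and *Grik2* the kainate family with 56.2%, ahead of *Grik5* with 19.2%. That order depends on the untranslated sequence annotated for the chosen transcript. The *Grik2* transcript has 2610 exonic bases, of which 2607 are coding, whereas that of *Gria2* has 10371, of which 2649 are coding.

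None of the 9 genes passed this threshold with edgeR, which called 218 of all 9959 genes (2.19%). Before adjustment 4 members had a p under 0.05, all with higher counts in *Fezf2 shRNA* tissue, where 11.8% of all genes did so in that direction. DESeq2 called 3 members, *Gria4*, *Grik2* and *Grik4*, all higher, and 6.61% of all genes in that direction. In the same 3 genes the lowest *Fezf2 shRNA* library lay above the highest control, a separation found in that direction in 7.41% of all genes. For *Grik4* it was lost with the widest transcript (5.32 to 7.42 reads per kb in the controls and 6.96 to 8.04 with *Fezf2 shRNA*). The log2 fold change was above 0 in 8 of the 9, with a median of 0.19 against -0.03 over all genes tested.

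*Gria1* encodes GluA1, the subunit whose delivery to synapses accompanies long-term potentiation, and it spans 318 kb on chromosome 11 (57011810 to 57330244). Its normalized reads were 13428, 17121, 14671 and 12491 in control libraries 1 to 4 and 18570, 15683, 15450 and 15878 in the *Fezf2 shRNA* libraries. Control library 2 lay above 3 of the 4 treated libraries and *Fezf2 shRNA* library 1 above all others, so the groups overlapped. With a log2 fold change of 0.18 ± 0.10 (SE) it did not pass (edgeR adjusted p = 0.318), and the value was 0.28 without control library 2 (adjusted p = 0.0933) and 0.12 without *Fezf2 shRNA* library 1 (0.558).

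*Gria2*, on chromosome 3 (80681450 to 80802835), was the steadiest of the 9. Control libraries held 28868, 27083, 27315 and 26362 reads and *Fezf2 shRNA* libraries 30147, 27174, 27264 and 28155. The groups ran through each other, and the difference between their means (2.84%) was smaller than the SD of either group (log2 fold change 0.04 ± 0.06, edgeR adjusted p = 0.738). Leaving out 1 library gave values from 0.01 (without *Fezf2 shRNA* library 1) to 0.07 (without control library 1).

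*Gria3*, on the X chromosome (41401304 to 41678601), encodes GluA3, which joins GluA2 in many cortical receptors. Controls 1 to 4 held 17231, 19901, 16602 and 15775 reads against 21134, 20652, 18814 and 20717 with *Fezf2 shRNA*. Control library 2 was the single control inside the range of the treated libraries, and it lay above 1 of them. The log2 fold change of 0.23 ± 0.08 did not pass (unadjusted p = 0.0151, edgeR adjusted p = 0.153), and without control library 2 it was 0.30 with an edgeR adjusted p of 0.0379.

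*Gria4* encodes GluA4, a fast-gating subunit that is abundant in parvalbumin interneurons, and lies on chromosome 9 (4417899 to 4796234). Its reads were 13777, 13617, 13601 and 11909 in controls 1 to 4 and 18456, 15748, 16722 and 15200 in the *Fezf2 shRNA* libraries. Every treated library lay above every control, with a mean 25% higher, and the log2 fold change of 0.32 ± 0.08 was the largest of the 9 genes. It came close to the threshold with edgeR (adjusted p = 0.0573) and passed with DESeq2 (0.33, adjusted p = 0.00288). Leaving out any 1 library kept the log2 fold change between 0.27 and 0.36 and gave edgeR adjusted p-values from 0.0564 to 0.139.

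*Grik1* encodes GluK1, known from interneurons of the forebrain, and spans 394 kb of chromosome 16 (87895901 to 88290243). It was counted at 1386, 1137, 1469 and 1344 reads in controls 1 to 4 and at 1549, 1345, 1580 and 1595 with *Fezf2 shRNA*. The treated library 2 lay inside the range of the controls, and the log2 fold change of 0.19 ± 0.09 did not pass (edgeR adjusted p = 0.280). It was 0.12 without control library 2 (edgeR adjusted p = 0.391).

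*Grik2*, the gene of the widely expressed GluK2, is the longest of the 9 at 678 kb (chromosome 10, 49105018 to 49783259). Controls held 9613, 8797, 9598 and 8952 reads and *Fezf2 shRNA* libraries 12750, 9673, 10886 and 11837. The lowest treated library, library 2, lay just above the highest control, and the treated libraries spread more widely (SD 1318 against 427). The log2 fold change was 0.29 ± 0.08 (unadjusted p = 0.00548, edgeR adjusted p = 0.0990; DESeq2 adjusted p = 0.0216), and without *Fezf2 shRNA* library 2 it was 0.36 with an edgeR adjusted p of 0.0375.

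*Grik3*, on chromosome 4 (125490700 to 125714173), encodes GluK3, a subunit of low agonist affinity. It was the one member with a negative log2 fold change (-0.06 ± 0.14, edgeR adjusted p = 0.832). Its reads were 4990, 7302, 4544 and 5021 in the controls and 4985, 4558, 5846 and 5567 with *Fezf2 shRNA*. Control library 2 stood far above every other library of either group, and without it the log2 fold change was 0.11 (edgeR adjusted p = 0.464).

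*Grik4*, on chromosome 9 (42520412 to 42808699), encodes GluK4. Controls 1 to 4 held 1845, 2284, 1920 and 1758 reads against 2600, 2285, 2324 and 2409 in the *Fezf2 shRNA* libraries. The groups were only just apart, control library 2 lying directly under treated library 2, while the means differed by 23.2%. The log2 fold change of 0.30 ± 0.09 did not pass with edgeR (unadjusted p = 0.00520, adjusted p = 0.0980) and passed with DESeq2 (adjusted p = 0.0247). Without control library 2 it was 0.39 with an edgeR adjusted p of 0.0234.

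*Grik5* encodes GluK5, the usual partner of GluK2, and is the shortest of the 9 at 62.4 kb (chromosome 7, 25009849 to 25072292). Its reads were 4650, 5112, 4177 and 4297 in the controls and 5073, 4545, 4983 and 4902 with *Fezf2 shRNA*, with control library 2 the highest of all 8. Its log2 fold change was 0.10 ± 0.07 (edgeR adjusted p = 0.473), and 0.16 without that library (adjusted p = 0.188).

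**Figure D2:**
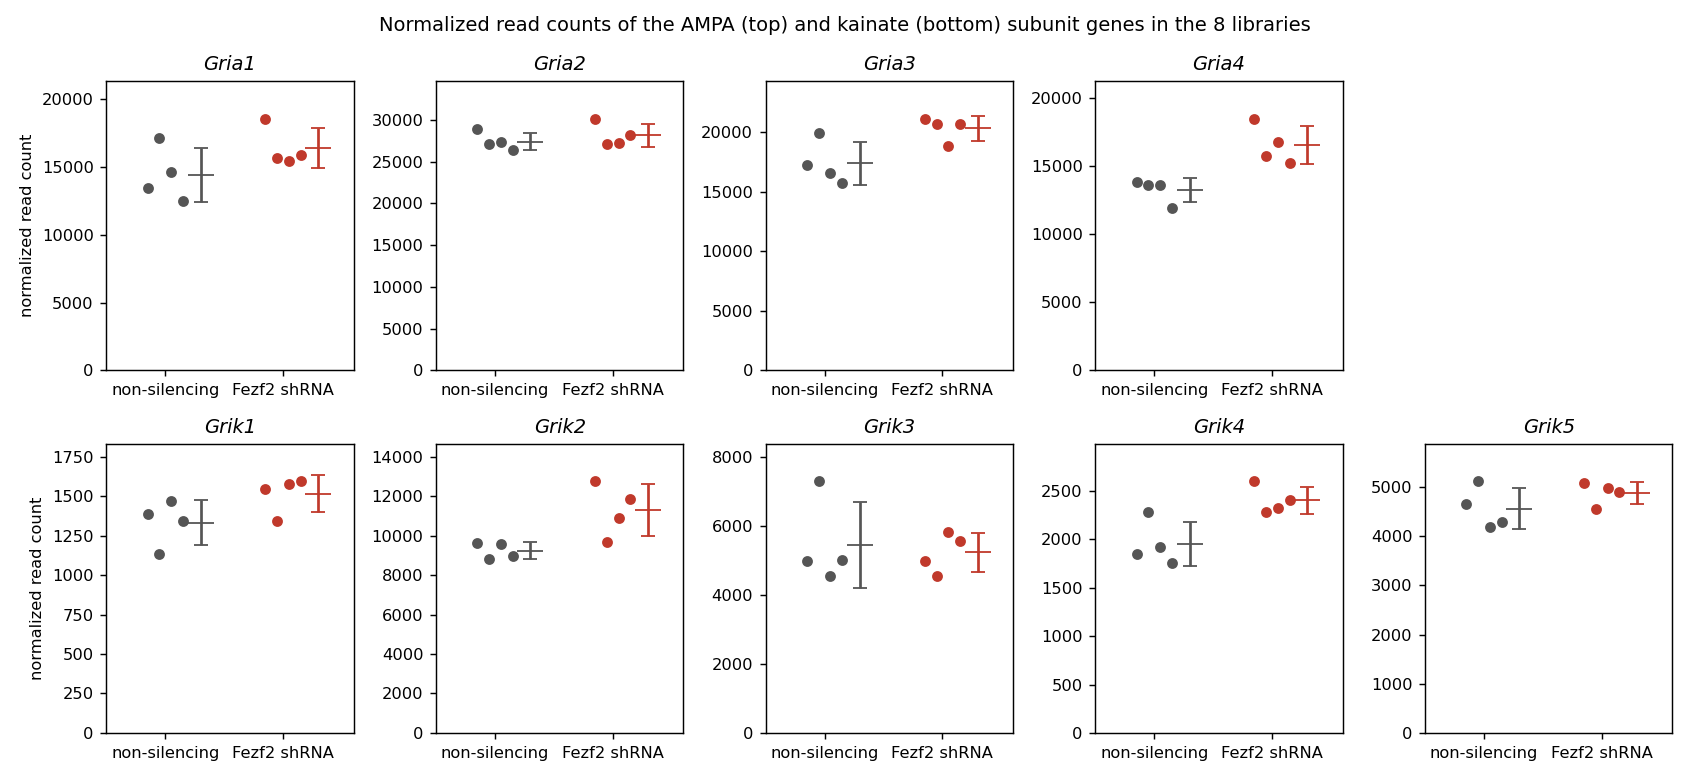
Normalized read counts of the 4 AMPA subunit genes (top) and the 5 kainate subunit genes (bottom), with each axis starting at 0; points are libraries 1 to 4 of each group from left to right, and the bar beside them is the mean ± SD (n = 4). The groups do not overlap in *Gria4*, *Grik2* and *Grik4*, and control library 2 is the highest control in *Gria1*, *Gria3*, *Grik3*, *Grik4* and *Grik5*.

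A permutation test of single genes over 4 against 4 libraries cannot give a two-sided exact p under 0.0286, and it gave that value for *Gria4*, *Grik2* and *Grik4*. *Gria3* reached 0.0571 and *Grik1* 0.0857, and the exact p of the other 4 members ran from 0.20 to 0.829.

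These genes are long, and across all genes the log2 fold change rose with the length of the transcript interval. Over 407 tested genes of 300 kb and more the median was 0.29 and 74.2% had higher counts in *Fezf2 shRNA* tissue at an unadjusted p under 0.05. Over 1297 genes of 100 to 300 kb the median was 0.15 (37.5%), and over 3119 genes of 30 to 100 kb it was 0.01 (9.84%). *Gria1*, *Gria4*, *Grik1* and *Grik2* belong to the longest class, *Gria2*, *Gria3*, *Grik3* and *Grik4* to the next and *Grik5* to the third. Set against the quartiles of its own class, the log2 fold change was within them for 4 members (*Gria3*, *Gria4*, *Grik2* and *Grik5*), below them for 4 (*Gria1*, *Gria2*, *Grik1* and *Grik3*) and above them for *Grik4*. The edge at 300 kb matters here. *Grik4*, at 288 kb and 0.30, lies within the quartiles of the longest class (0.19 to 0.39). *Gria1*, at 318 kb and 0.18, lies within those of the 100 to 300 kb class (0.05 to 0.25). DESeq2 called 56.3% of the longest class and 21.2% of the next as higher in *Fezf2 shRNA* tissue. The groups did not overlap, in either direction, in 50.4% of tested genes of the longest class and 23.7% of the next.

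**Figure D3:**
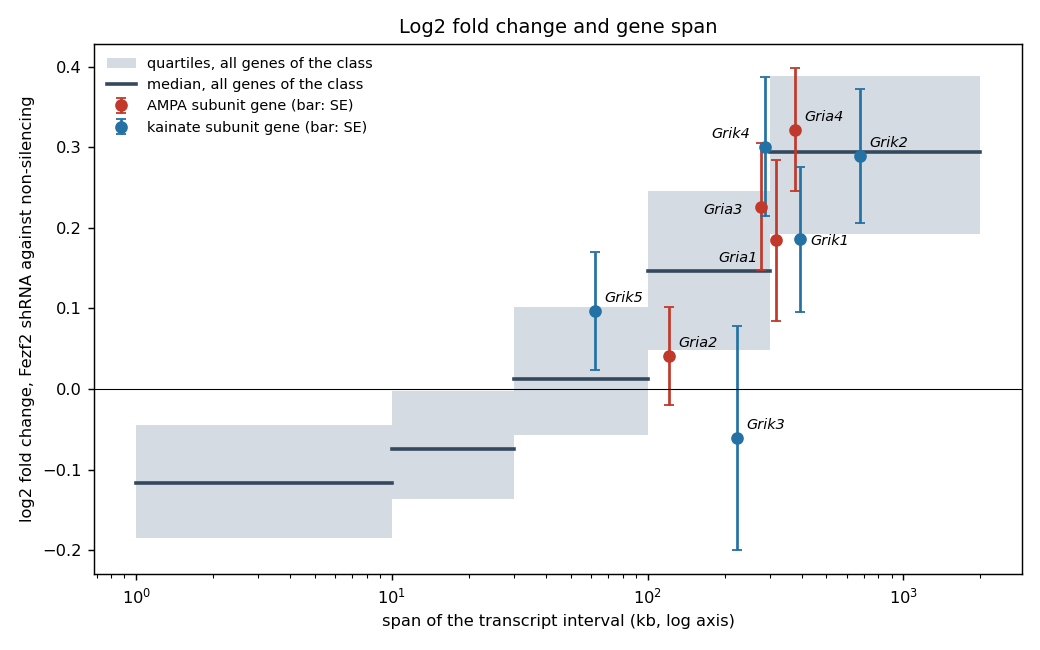
Log2 fold change (*Fezf2 shRNA* against non-silencing) by span of the transcript interval (kb, log axis). Grey boxes are the quartiles and dark lines the medians of all tested genes in 5 span classes, the outer classes drawn to the edge of the plot, and points are the 9 genes with their SE. The class medians climb from -0.12 for the shortest to 0.29 for the longest class, and 4 of the 9 genes lie within the quartiles of their class.

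A per-library adjustment for gene span was fitted to these same libraries without regard to treatment. It therefore removes any difference between the groups that follows span. With this adjustment the members centred on 0, which places their centre near the trend with span and does not show that they were unchanged. The log2 fold change was above 0 in 4 of the 9 and their median was -0.05, against -0.01 for all genes. *Gria4* changed from 0.32 to 0.06 ± 0.06, *Grik2* from 0.29 to -0.05 ± 0.07, *Grik4* from 0.30 to 0.07 ± 0.07 and *Gria3* from 0.23 to 0.0038 ± 0.07. *Gria1* (-0.06 ± 0.08), *Gria2* (-0.08 ± 0.06) and *Grik1* (-0.09 ± 0.09) also took the opposite sign, and *Grik3* stood at -0.26 ± 0.12. *Grik5*, the shortest, moved least in going from 0.10 to 0.05 ± 0.07. After this adjustment edgeR called 0 of the 9 members, and 2 of all genes (0.0201%), and at an unadjusted p under 0.05 it had 0 members and 11.0% of all genes. The origin of the relation with gene span was not tested.

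**Figure D4:**
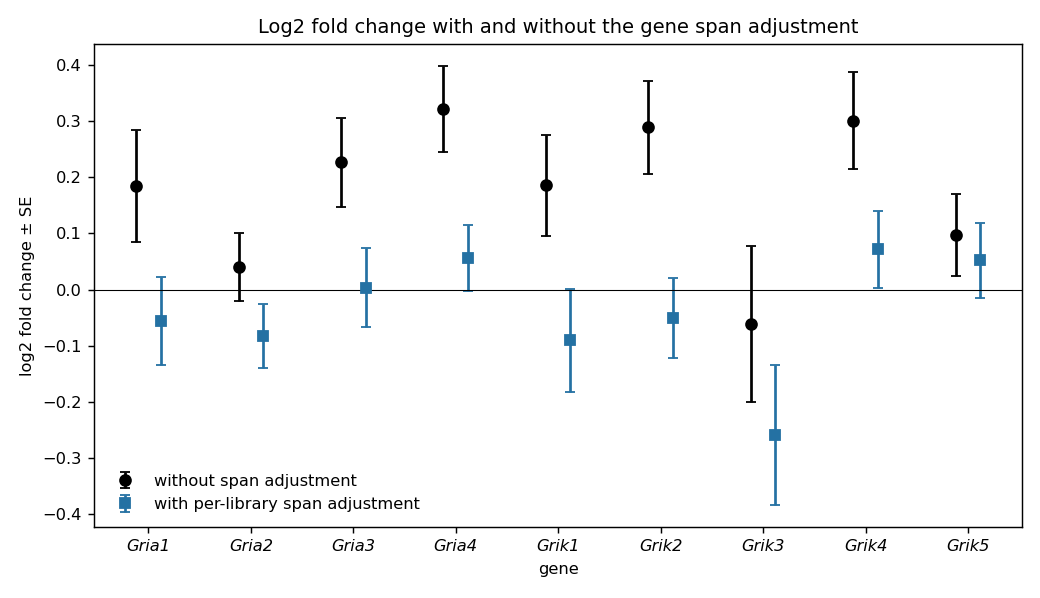
Log2 fold change ± SE of the 9 genes without (black circles) and with (blue squares) the per-library adjustment for gene span. Values of 0.29 to 0.32 for *Gria4*, *Grik2* and *Grik4* become -0.05 to 0.07, and *Grik3* lies lowest with either.

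Shorter annotated transcripts inside a gene count a part of its interval. *Gria1*, *Gria3*, *Gria4* and *Grik1* had such parts, *Grik2* and *Grik4* had stretches only by the subtraction described below, and *Grik3* and *Grik5* had none. The shorter *Gria2* transcript carries the same counts as the gene and so gave no separate part. Over all genes, 14.7% of 2365 intronic parts (at most 5% exonic bases) rose past the threshold with *Fezf2 shRNA* and 0.276% of 725 exonic parts (at least 80%) did. The classes differ in more than exonic share. Intronic parts held more reads (median 591 against 304), and only exonic parts had to come from a gene at least 5 times their length. The intronic parts of *Gria3* and *Gria4* were among those that rose. In *Gria3* this was a stretch of 75.9 kb from chrX:41402740-41478661 with 0.42% exonic bases, counted at 2224, 2625, 2365 and 2084 reads in controls 1 to 4 and at 3377, 2952, 2761 and 3189 with *Fezf2 shRNA*. No treated library reached down to a control (log2 fold change 0.40 ± 0.10, edgeR adjusted p = 0.0248).

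In *Gria4* the part of 318 kb at the 5′ end of the gene, chr9:4478263-4796234 with 0.78% exonic bases, held 7037, 7102, 7475 and 6379 reads in the controls and 10421, 9131, 9655 and 8171 with *Fezf2 shRNA*. These groups did not overlap either (0.42 ± 0.09, edgeR adjusted p = 0.0202). Both calls were lost without control library 1 (adjusted p = 0.0787 for *Gria3* and 0.0667 for *Gria4*), control library 4 (0.0645 and 0.0519) or *Fezf2 shRNA* library 1 (0.0627 and 0.0512), that of *Gria3* also without *Fezf2 shRNA* library 4 (0.0611) and that of *Gria4* without library 3 (0.0516), with log2 fold changes from 0.35 to 0.46 and from 0.36 to 0.48 over all 8 omissions. The other parts of the intronic class, 317 kb of *Gria1* (0.19 ± 0.11, edgeR adjusted p = 0.271), 13.3 kb of *Gria1* (-0.04 ± 0.11, 0.821) and 144 kb of *Grik1* (0.20 ± 0.10, 0.201), did not pass. The class is set by the share of bases, and reads of exons inside a part are counted with it. The 317 kb of *Gria1* are nearly its whole interval and hold 5626 exonic bases. The 144 kb of *Grik1* hold 5424, so neither part measures introns alone.

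Stretches with a larger share of exonic bases were counted in *Gria1*, *Gria3*, *Gria4* and *Grik2*, of which only those of *Gria1* and *Gria3* obtained by subtraction were wholly exonic. The 11.1 kb of *Gria3* that hold the pore codon are 34.6% exonic and counted 966, 1001, 882 and 758 reads in the controls and 932, 977, 931 and 978 with *Fezf2 shRNA*. Those groups overlapped (0.08 ± 0.10, edgeR adjusted p = 0.614). Stretches obtained by subtracting a nested transcript from a longer one, an approach chosen after the data had been seen, were fitted in the same way, with 10.9% of intronic and 0.38% of exonic stretches of all genes rising past the threshold. The 2.1 kb of outermost exon sequence of *Gria3*, wholly exonic, held 2584, 3131, 2448 and 2515 reads against 2710, 3127, 2645 and 2484 (0.04 ± 0.10, edgeR adjusted p = 0.857). The 60.4 kb at the 3′ end of *Gria4*, which hold its pore codon, are 6.31% exonic and so still mostly intron, held 6741, 6515, 6126 and 5529 reads against 8035, 6617, 7067 and 7029, with treated library 2 inside the range of the controls (0.21 ± 0.09, edgeR adjusted p = 0.196). The 5.2 kb past the 3′ end of the *Grik2* interval, 36.5% exonic, held 470, 508, 427 and 426 reads against 401, 460, 399 and 415 (-0.13 ± 0.10, edgeR adjusted p = 0.50), while *Grik2* itself, 0.87% exonic, stood at 0.29. The remaining stretches were 147 bp of wholly exonic sequence in *Gria1* (0.10 ± 0.18, edgeR adjusted p = 0.788) and stretches of the intronic class in *Gria1* (304 kb, 0.20 ± 0.11, adjusted p = 0.296), *Grik1* (251 kb, 0.14 ± 0.17, adjusted p = 0.662) and *Grik4* (138 kb outside the interval used for the gene, 0.30 ± 0.16, adjusted p = 0.276), and none passed. The 304 kb of *Gria1* hold 5095 exonic bases and so include most of its exons.

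The contrast between stretches was then taken within each library, as the log2 ratio of reads in the stretch poorer in exonic bases to reads in the richer one. The richer stretch was wholly exonic in *Gria3* and *Gria1*, 36.5% exonic in *Grik2* and 6.31% exonic in *Gria4*. The poorer one was the whole interval in *Grik2* and nearly the whole interval in *Gria1*, exons included. The log2 ratio was higher by 0.36 with *Fezf2 shRNA* in *Gria3*, by 0.21 in *Gria4* and by 0.41 in *Grik2* (each two-sided exact permutation p = 0.0571, 0.0762 after adjustment over the 4 ratios tested). In *Gria1* it was higher by 0.08 (exact p = 0.629). In *Gria3*, 3 of the 4 treated libraries lay above all controls, and library 2 (-0.08) did not. The same held for *Gria4*, where treated library 4 (0.22) lay inside the controls, and for *Grik2*, where treated library 2 (4.39) equalled a control to 2 decimals. None of the 4 ratios reached an exact p under 0.05. The stretches also differ in position. In *Gria3* and *Gria4* the poorer one lies toward the 5′ end and the richer one mostly or wholly at the 3′ end. In *Grik2* the richer one lies past the 3′ end of the interval. Exonic share and position along the gene cannot be told apart in these ratios.

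**Figure D5:**
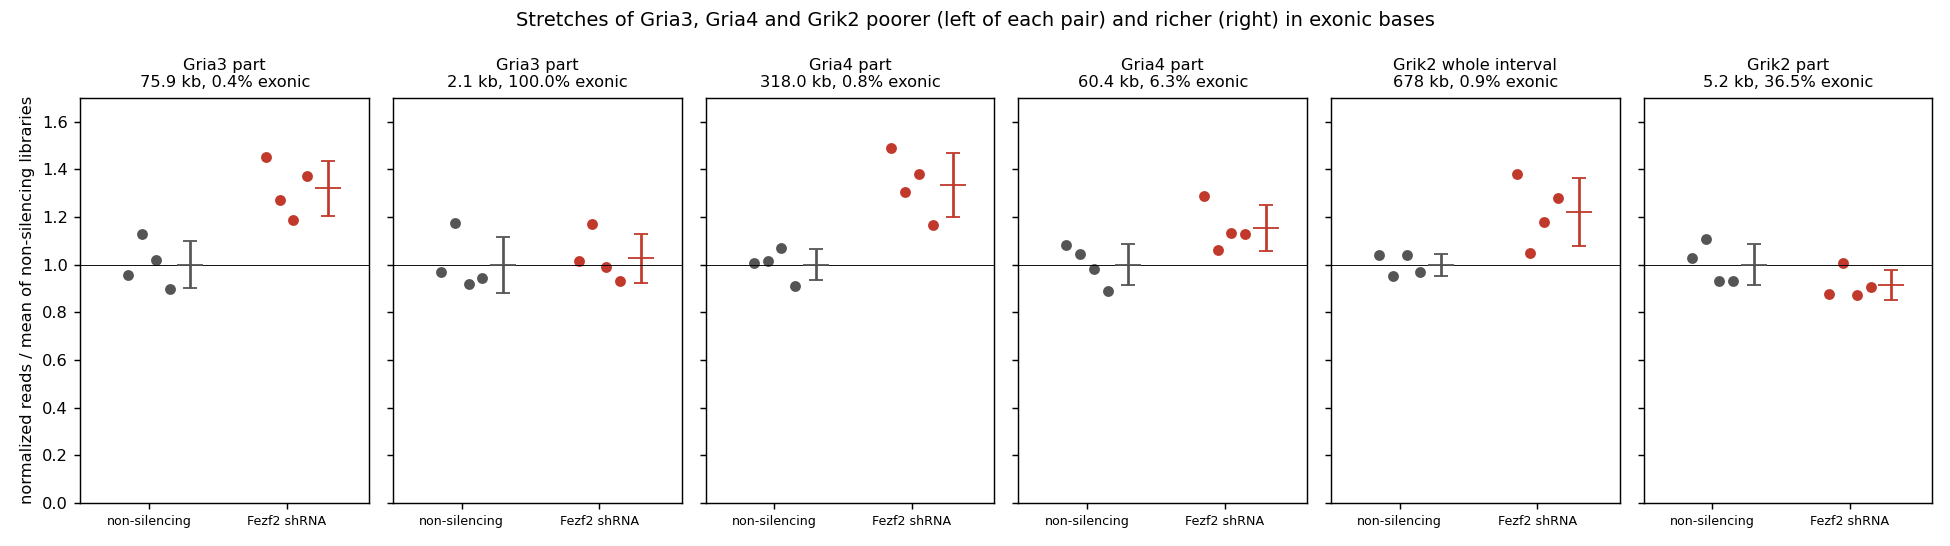
Normalized reads of stretches poorer and richer in exonic bases in *Gria3*, *Gria4* and *Grik2*, with the exonic share above each panel and each stretch divided by its mean in the non-silencing libraries (line at 1); points are libraries, bars the mean ± SD (n = 4). The groups do not overlap in the poorer stretch of any of the 3 genes and overlap in the richer one, which in *Gria4* is still 6.31% exonic. The richer stretches also lie mostly or wholly toward or past the 3′ end, so exonic share and position cannot be told apart.

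Of 39 genes whose products assemble with, deliver, anchor or edit these receptors, 36 passed the filter on low counts. edgeR called 1 of the 36, *Grip1*, where 2.19% of all genes were called. Before adjustment 7 had a p under 0.05, all higher in *Fezf2 shRNA* tissue (11.8% of all genes), and DESeq2 called 6, all higher (6.61% of all genes). Their median log2 fold change was 0.06. *Grip1*, which encodes a scaffold that binds the tails of GluA2 and GluA3, held 6106, 6365, 6541 and 5593 reads in controls 1 to 4 and 8778, 8391, 9066 and 8487 with *Fezf2 shRNA*. All treated libraries exceeded all controls (0.50 ± 0.06, edgeR adjusted p = 0.0123), though the call was lost without control library 1 (0.0771) or *Fezf2 shRNA* library 3 (0.0508). *Grip1* spans 623 kb, and with the span adjustment its value was 0.18 (edgeR adjusted p = 0.266).

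By role, 0 of 11 tested AMPA auxiliary subunit genes passed with edgeR (3 at an unadjusted p under 0.05, 2 called by DESeq2), and the one of smallest p was *Cacng3*, a TARP that traffics and slows AMPA receptors. It stood at 3746 to 4928 reads in the controls and at 4955 to 6696 with *Fezf2 shRNA*, without overlap (0.45 ± 0.11, edgeR adjusted p = 0.0599), and at 0.36 with the span adjustment. Neither kainate auxiliary subunit gene passed, *Neto1* standing at 0.20 ± 0.10 (edgeR adjusted p = 0.302) and at 0.09 with the span adjustment. Among 9 genes of receptor biogenesis and delivery 0 passed, 2 having an unadjusted p under 0.05, and *Syndig1* came nearest (0.34 ± 0.08, edgeR adjusted p = 0.0579; DESeq2 adjusted p = 0.00432), at 2817 to 3532 reads in the controls and 3845 to 4309 with *Fezf2 shRNA*, and at 0.18 with the span adjustment. *Nptxr*, the membrane pentraxin that clusters AMPA receptors, had the smallest p among 4 pentraxin and C1q-like genes tested (0.16 ± 0.09, edgeR adjusted p = 0.331; 0.10 without control library 3). With the span adjustment *Nptxr* stood higher, at 0.22 (edgeR adjusted p = 0.394).

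Of the RNA editing enzymes, *Adarb1*, which encodes ADAR2, stood at 0.07 ± 0.05 (edgeR adjusted p = 0.498) and *Adar* at -0.03 ± 0.05 (0.815), and the span adjustment turned the sign of both (-0.06 and 0.03). *Adarb2*, whose product is not known to edit by itself, spans 559 kb and held 4186 to 5026 reads in the controls and 5136 to 6853 with *Fezf2 shRNA*, without overlap. It stood at 0.37 ± 0.09 (edgeR adjusted p = 0.0682; DESeq2 adjusted p = 0.00473), or 0.05 with the span adjustment.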

How the data were processed

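Total RNA of M1 from 8 tissue samples, 4 per group by their labels, was sequenced as paired ends. Per the labels' processing notes and the study's methods, the authors aligned reads to mm10 (GRCm38) with TopHat2 2.1.1 and deposited raw counts per Ensembl transcript made with bedtools 2.26.0 multicov. Those counts cover whole transcript intervals, introns included: in 98.6% of 13823 pairs of nested transcripts whose inner one has more exonic bases, the outer one was still given no fewer reads in any library. Whether strand was used was not given in the sources used here, so reads of overlapping genes cannot be told apart. The authors' table of DESeq2 fold changes and p-values was not used.

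Transcripts were named from GENCODE M21. It held 91320 of 94647, and the 3327 others (1.82% of counts) were left out. The members and gene lists were chosen with earlier results of these data known. Genes above 8 CPM in 4 or more libraries were fitted with edgeR 4.0.16 (quasi-likelihood, TMM, Benjamini-Hochberg adjustment over all genes tested) in R 4.3.3, without covariates, after a test on simulated data. A call needed an adjusted p of at most 0.05 and a log2 fold change of at least 0.2 in size. Normalized reads are counts divided by the TMM-scaled library size, times its mean. The span adjustment was an offset per library, a loess curve (span 0.3) fitted over log span to each library's log deviation from the average library. It had no term for treatment. Parts of genes were fitted together, needing a mean of at least 100 reads. Exact permutation tests were two-sided, on log2(normalized reads + 1), and ratios of parts used a pseudocount of 1. Alternatives were DESeq2 1.42.0, other normalizations, filters and transcripts, a replicate block and leaving out each library. Named were all members, *Fezf2*, each partner gene past the threshold and that of smallest p in each role. One group of partner genes is not reported here. *Adarb1* and *Adar* were added after their values were seen, for their role. The common biological coefficient of variation was 11.7%, and with 1101 reads or more per member in every library the spread between libraries outweighs counting error.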

Additional observations from a re-analysis of the deposited data

Results flagged for a closer look

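A library standing far from the other 3 of its group was looked for in 58 groups of 4 libraries. These covered the members, *Fezf2*, the parts of genes and the named partner genes other than *Adarb1* and *Adar*. Of the groups, 5 held such a library, and chance alone marks about 1 group in 20. *Fezf2 shRNA* library 1 was the highest for *Gria1*, at 18570 normalized reads against 15450 to 15878 in the other 3 treated libraries. The same library stood out for stretches of *Gria1* that hold nearly all of those reads, at 18197 against 15105 to 15542 in 317 kb and at 17335 against 14273 to 14778 in 304 kb. Control library 4 was the lowest for *Gria4*, at 11909 against 13601 to 13777 in the other controls. In the 144 kb part of *Grik1*, *Fezf2 shRNA* library 2 was the lowest at 1152, against 1295 to 1308. The causes were not tested.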

How the results depend on the processing

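Size factors, library totals, both looser filters, edgeR's earlier quasi-likelihood method (added after the data were seen) and the widest transcript moved no member across the threshold or 0. The 218 genes called became 111 with more than 1 CPM, 85 with no filter, 752 with DESeq2, 2 with the span adjustment and 3, 398, 112 and 12 without control library 1, 2, 3 or 4, or 12, 276, 7 and 15 without *Fezf2 shRNA* library 1, 2, 3 or 4. Members called numbered 3 with DESeq2 and 0 to 2 without 1 library. Partner genes called numbered 6 with DESeq2, 0 with the span adjustment and 0 to 4 without 1 library, and parts of members past the threshold 0 to 2. The span adjustment turned the sign of *Gria1* (-0.056), *Gria2* (-0.082), *Grik1* (-0.090) and *Grik2* (-0.050), and the log2 fold change of *Grik3* ranged from -0.13 to 0.11 without 1 library (0.0009 without *Fezf2 shRNA* library 2). Per kb of exons, the control share of *Gria2* was 24.1% and that of *Grik5* 19.2%. The cause of these shifts was not tested.

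The labels give same-numbered libraries of the 2 groups a shared number and do not say whether they shared a batch. Their deviations correlated at 0.30, 0.09, -0.13 and 0.17, the 0.30 being the highest of any pairing, and not every library correlated best with its own number. With the replicate block 89 genes, 0 members and 1 partner gene were called. With the block and the span adjustment 2 genes and 0 partner genes were called, with *Gria1* at -0.054, *Gria2* at -0.082, *Grik1* at -0.082 and *Grik2* at -0.050. Bulk RNA, 4 libraries a group and a moderate knockdown limit what these data can show, and counts over introns do not measure mRNA.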
